A study of Mus musculus with 9 samples.

Results

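Transcripts of the cell cycle and of DNA replication were followed across Cebpb-ko mouse embryonic fibroblasts (MEFs) that carry LAP, LIP or an empty vector (EV). The set holds 57 of the 23337 gene symbols in the count table and was assembled by known function, with earlier results of these data known. Its 30 S phase genes build, license and copy replication origins, and its 27 mitosis genes drive and check chromosome segregation. All 57 symbols were found in the table, and 56 had at least 1 count and were tested. At an adjusted p under 0.05, no S phase gene and no mitosis gene differed between LIP and EV, between LAP and EV or between LIP and LAP, in the quasi-likelihood test of edgeR, with p-values adjusted over all genes tested by Benjamini-Hochberg. At an unadjusted p under 0.05 the counts were 6, 1 and 8 of the 56 genes, or 10.7%, 1.79% and 14.3%. Of all genes tested 11.0%, 3.27% and 9.28% passed that level. DESeq2 and the edgeR exact test also called 0 of the 56 in each comparison at an adjusted p under 0.05. A model that takes the replicate number as a block called 5 of them between LIP and LAP, against 6.51% of all genes. Of these 5, 3 were also called once a trend with exon length and GC content was removed, as described further below. That fit called 5.27% of all genes.

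The cells were immortalised fibroblasts with a Cebpb knockout on a mixed C57BL/6 x 129 background, and every library shares that knockout. The EV group received the vector alone, and the LAP and LIP groups received it with the rat C/EBPβ isoform of that name, after which stable lines were kept under the antibiotic Zeocin. LAP is the long activating isoform made from the Cebpb mRNA, and LIP is the short isoform that keeps the DNA-binding part and lacks the activation domains. Each group had 3 libraries, which makes 9 in total, and the sources used here do not say whether a group was a pool of transfected cells or a clone, nor whether its libraries came from separate cultures. P-values therefore measure only the spread between these libraries, which may be technical. The study examined how both isoforms affect metabolism and proliferation, and the comparisons given here ask which replication and division transcripts differed between the groups.

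A dividing cell passes from G1 into S phase when cyclin E with Cdk2 releases E2F factors from their repressors, and E2F factors then switch on the genes of DNA synthesis. Licensing loads the Mcm helicase on origins, with Cdc6 and Cdt1 as loaders and geminin as the inhibitor of Cdt1, and firing adds Cdc45 and the GINS complex. The genes of mitosis peak later and are driven by Mybl2 and Foxm1, which act with the MuvB complex on promoters that carry a CHR element. Cdk1 with its cyclins A and B starts mitosis, Plk1 and the Aurora kinases carry it out, and Cdc20 with the anaphase promoting complex ends it. Messages of both waves are therefore used to gauge how many cells of a population are cycling. In bulk RNA, fewer cells in a phase and less of these messages per cell cannot be told apart.

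Library totals on genes lay between 24839139 and 33522082 reads. Levels are given as CPM, counts scaled to a common library size with edgeR's TMM method over the 9 libraries, and TMM factors lay between 0.949 and 1.10. The 3-count floor used here stood for 0.0895 to 0.121 CPM and covers counting error only. The fibroblast label was checked on 10 markers, whose summed level was 14530 to 41320 CPM, against 485 to 1004 CPM for 6 epithelial, 2.51 to 8.26 CPM for 5 blood cell and 1.54 to 3.64 CPM for 4 endothelial markers. Vim was at 3358 to 5092 CPM, Pdgfra at 0.524 to 2.93 CPM, Pdgfrb at 0.0969 to 1.73 CPM and Lum at 0 to 1.4 CPM, so not every fibroblast marker was high. Nor was every epithelial marker low, with Krt8 at 387 to 792 CPM and Krt14 at 82.1 to 244 CPM. Cdh1, Krt18, Epcam and Krt5 were at 3.69 CPM or less in every library. The summed fibroblast markers were lowest in LIP 2. At an unadjusted p under 0.05, which 11.0% of all genes tested passed, 7 of the 10 were lower in LIP than in EV. None of the 10 had an adjusted p under 0.05, and their median log2 fold change was -1.09. The part of this difference in the values of the cell cycle genes was not tested. LAP 2 stood apart from the other libraries. Across 11393 genes, Spearman's correlation between its deviation from the mean of the 9 libraries and exon length was -0.43, whereas it lay between -0.05 and 0.22 in the other 8 libraries. Over the 56 cell cycle genes it was -0.52 in LAP 2, so short transcripts tended to be high and long ones low in that library.

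Per length of exon, the cell cycle genes spanned a wide range of levels. The values that follow are the mean over the 9 libraries in CPM per kb of exon. Exon lengths are from GENCODE vM21, joined over the annotated transcripts of a gene, and may exceed the length of its main message. Of the S phase genes 12 of 30 were at 50 or more CPM per kb, with Pcna, the sliding clamp of the DNA polymerases, the highest at 306. Rrm1 and Rrm2, the subunits of the enzyme that makes deoxynucleotides, followed at 186 and 139. The 6 subunits of the Mcm helicase lay close together, from 68.6 for Mcm6 to 96.4 for Mcm7. The E2F factors were lower, at 17.2 for E2f1, 9.04 for E2f8 and 3.26 for E2f2. Of the mitosis genes 16 of 27 were at 50 or more, led by the topoisomerase Top2a at 158, the centromere histone Cenpa at 146 and the anaphase activator Cdc20 at 112. Cyclin B1 (Ccnb1) was at 95.8, Cdk1 at 72.6, Plk1 at 67.5 and the proliferation marker Mki67 at 52.2. The median was 23.1 for the S phase genes and 54.8 for the mitosis genes. Among genes with counts, the ranges over the 9 libraries overlapped for 26 of 28 neighbours in the S phase order and for 20 of 26 in the mitosis order. Pcna stood above Rrm1 and E2f8 above Cdc45 without overlap, and the breaks in the mitosis order lay among its lower genes, from Foxm1 above Cenpe downwards.

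**Figure D1:**
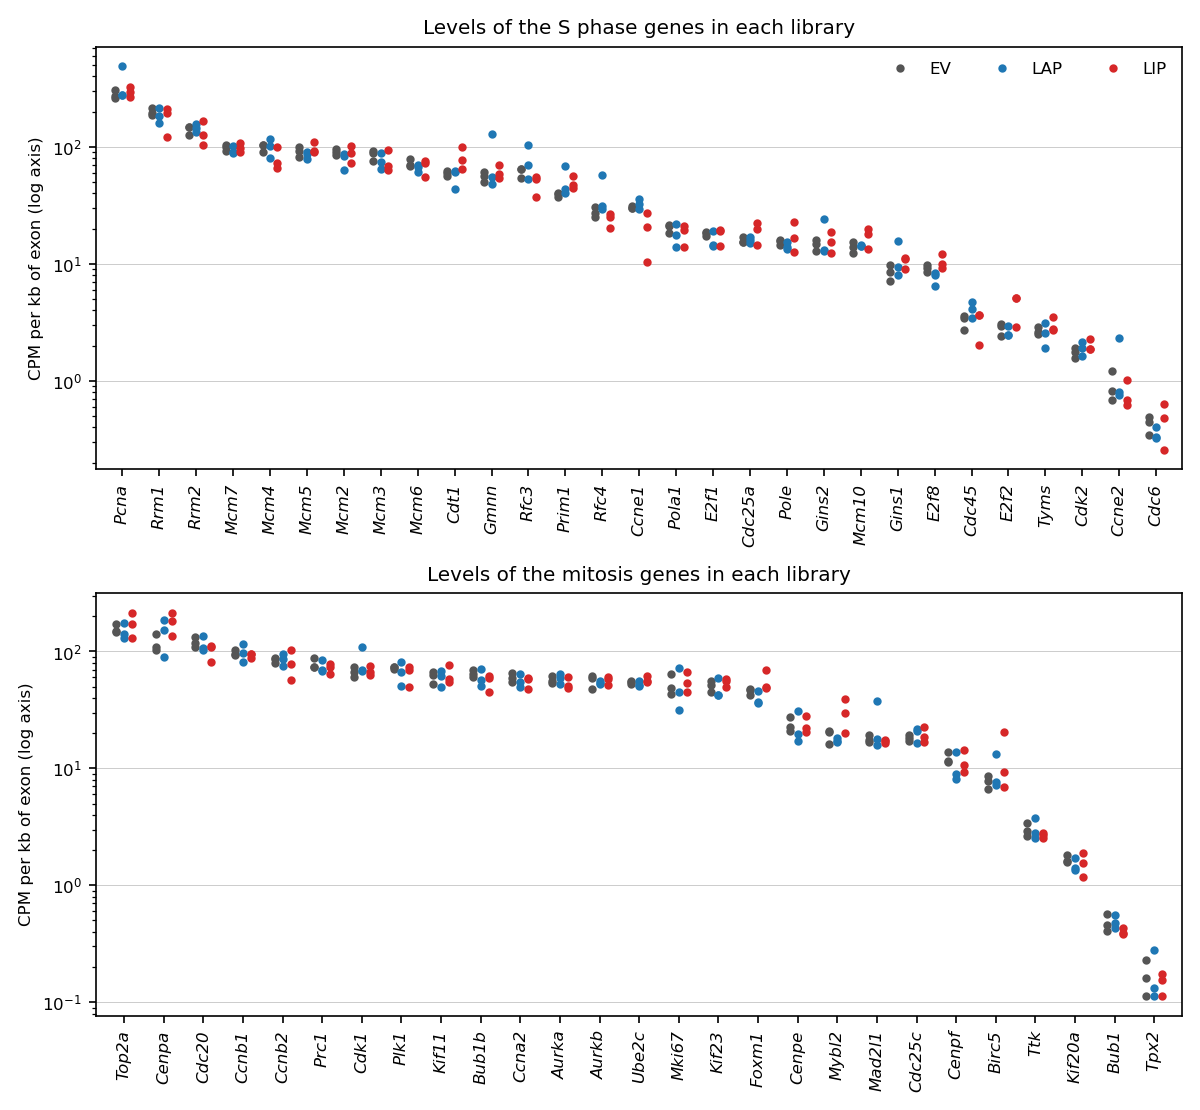
Levels of the S phase genes (upper panel) and the mitosis genes (lower panel) in CPM per kb of exon on a log axis, ordered by their mean, with each point 1 library of EV (grey), LAP (blue) or LIP (red); Uhrf1, at 0 counts in every library, is not drawn. Levels run from 306 for Pcna to 0.412 for Cdc6 and from 158 for Top2a to 0.163 for Tpx2 as means over the 9 libraries, and for most genes the 3 groups lie on top of each other.

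Several genes of central steps were low or absent. Uhrf1, which keeps DNA methylation at the replication fork, had 0 counts in all 9 libraries, for which the 3-count floor of up to 0.121 CPM bounds only the reads that were assigned to the gene. Reads that the counting left out are not covered by that floor. Tpx2, a spindle assembly factor, had 12 to 33 counts per library. The checkpoint kinase Bub1 had 33 to 53 counts and the licensing factor Cdc6 had 38 to 76 counts. Cdk2 had 110 to 167 counts, the cyclin Ccne2 54 to 208, the helicase activator Cdc45 135 to 285, the thymidylate synthase Tyms 196 to 311, and the checkpoint kinase Ttk 198 to 340. None of Uhrf1, Tpx2, Bub1, Cdc6, Cdk2, Tyms and Ttk shares exon bases with another gene in GENCODE vM21, and the cause of their low counts was not tested. The library kit does not mark strand, so reads of overlapping genes cannot be told apart. This concerns Gins2, which shares 70.7% of its exon bases with Gse1, Kif20a with 31.8% shared with Cdc23, Ube2c with 22.8% shared with Tnnc2, and Prc1 with 21.8% shared with Rccd1. Smaller shares were 15.7% for E2f8 with Gm2788, 13.4% for Rfc4 with Eif4a2 and 13.0% for Mcm7 with Ap4m1 and Cops6. Ccne2 shared 10.5% with Ints8 and Ccna2 10.4% with Exosc9. Plk1, Foxm1, Cdc20, Cdc45 and Pole shared 7.1% or less.

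Promoters were read from RefSeq sequences on GRCm38.p6 that run from 250 bases before to 50 bases after the start of transcription. They held 49 promoters of 45 of the 57 genes, 27 of S phase and 22 of mitosis genes. The E2F letters TTTGGCGC, TTTCCCGC, TTTCGCGC or TTTGCCGC, searched on both strands, were in 44.4% of the S phase promoters, in 4.55% of the mitosis promoters and in 2.26% of all 32851 promoters. The CHR letters TTTGAA or TTCGAA were in 22.2% of the S phase promoters, in 77.3% of the mitosis promoters and in 19.2% of all. The CCAAT box was in 77.8%, 86.4% and 37.4%, in the same order. The letters TTGCNNAA, searched as a loose C/EBP site, were in 7.41%, 0% and 10.8%. The 2 matches among the S phase genes, in Mcm3 and Pcna, both read TTGCTCAA. Matches to the E2F letters may overlap on opposite strands, as they do in Mcm5. Over the 10234 promoters of genes whose mean count was at least 20, the shares were 3.92% for E2F, 13.5% for CHR, 38.0% for CCAAT and 8.11% for TTGCNNAA. With the 250 bases before the start alone, CHR letters were in 40.9% of the mitosis and 17.1% of all promoters, since many lie just past the start. Aurkb, Ccna2, Ccne2, Cdc25c, Foxm1, Gins1, Gins2, Gmnn, Kif20a, Mcm4, Pole and Tpx2 had no entry. These matches describe letters and do not show binding.

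**Figure D2:**
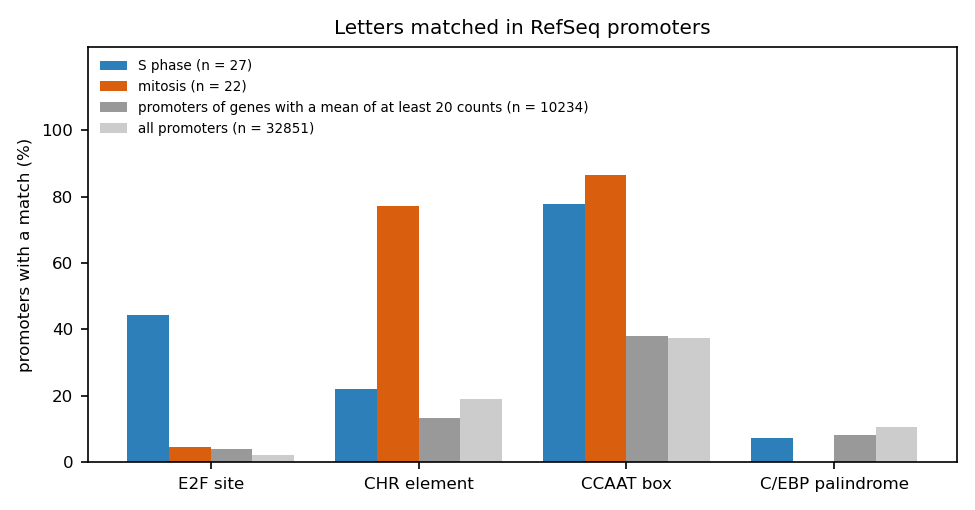
Share of promoters with a match (percent, axis from 0) for the 4 motifs, over 27 S phase promoters (blue), 22 mitosis promoters (orange), 10234 promoters of genes whose mean count was at least 20 (dark grey) and all 32851 promoters (light grey). The E2F letters stand out in the S phase genes at 44.4%, the CHR letters in the mitosis genes at 77.3% and the CCAAT box in both sets. The letters TTGCNNAA, labelled C/EBP palindrome on the axis though they are not a palindrome, stand out in neither.

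The difference between both waves can be read in single promoters, written 5′ to 3′ on the strand of the gene, with E2F, CHR and CCAAT letters in capitals. Mcm5, a helicase subunit of S phase, shows a double E2F match and a pair of CCAAT boxes in the 200 bases before its start (chr8:75109309-75109508, plus strand). Cdk1 (chr10:69352913-69353062, minus strand) and Cdc20 (chr4:118437344-118437493, minus strand) show CHR letters and CCAAT boxes, the pattern of mitosis promoters, and Cdk1 alone among the mitosis promoters also holds E2F letters. Rfc3, a clamp loader subunit, holds E2F letters at its start (chr5:151651209-151651358, minus strand). Mybl2 (chr2:163054485-163054634, plus strand) and Ccne1 (chr7:38107491-38107640, minus strand) are shown because they had the smallest adjusted p between LIP and LAP under the replicate block described below. Neither stretch holds an exact match to the letters searched. Other forms of these sites were not searched, so this does not show that the sites are absent.
Mcm5: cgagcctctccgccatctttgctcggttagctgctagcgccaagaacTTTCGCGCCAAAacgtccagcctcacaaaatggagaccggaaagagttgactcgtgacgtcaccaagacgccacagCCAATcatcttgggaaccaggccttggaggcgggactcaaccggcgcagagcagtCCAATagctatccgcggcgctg
Rfc3: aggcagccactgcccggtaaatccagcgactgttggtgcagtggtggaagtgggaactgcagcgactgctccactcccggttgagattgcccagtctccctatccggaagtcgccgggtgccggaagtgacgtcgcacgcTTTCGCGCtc
Cdk1: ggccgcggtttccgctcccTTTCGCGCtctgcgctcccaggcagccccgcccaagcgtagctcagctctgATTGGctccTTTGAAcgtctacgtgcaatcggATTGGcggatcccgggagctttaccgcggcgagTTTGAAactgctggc
Cdc20: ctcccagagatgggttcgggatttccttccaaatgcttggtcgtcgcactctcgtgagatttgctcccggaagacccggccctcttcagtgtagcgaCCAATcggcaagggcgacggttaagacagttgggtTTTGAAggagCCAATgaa
Mybl2: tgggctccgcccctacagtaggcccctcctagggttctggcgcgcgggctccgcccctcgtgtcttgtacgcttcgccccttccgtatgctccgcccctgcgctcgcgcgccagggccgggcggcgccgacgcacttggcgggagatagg
Ccne1: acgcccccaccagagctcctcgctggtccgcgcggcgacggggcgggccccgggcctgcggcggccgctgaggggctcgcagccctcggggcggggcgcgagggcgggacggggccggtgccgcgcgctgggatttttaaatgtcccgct

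For genes whose match lies past the start, 30 bases around it are given. Cdt1 (chr8:122568035-122568064, plus strand) and E2f2 (chr4:136172294-136172323, plus strand) hold E2F letters there, and Cenpa (chr5:30666891-30666920, plus strand), Plk1 (chr7:122159454-122159483, plus strand) and Ccnb2 (chr9:70421532-70421561, minus strand) hold CHR letters. The E2F letters are therefore shared by genes that were higher in LIP at an unadjusted p, Cdt1 and E2f2, by Rfc3, which was lower in LIP than in LAP, and by Mcm5, whose groups overlapped, as described below.
Cdt1: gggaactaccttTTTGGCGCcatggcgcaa
E2f2: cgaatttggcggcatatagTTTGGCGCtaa
Cenpa: gcgggtgatttTTTGAActgctggcgaccg
Plk1: ccagcgccgcgTTTGAAttcggggaggagc
Ccnb2: gcggcgcggtaTTTGAAtcgcggaccgggc

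As whole sets, both waves were at closely similar levels in the 3 groups. The summed level of the S phase genes was 4361 ± 237 CPM in EV, 4342 ± 104 CPM in LAP and 4243 ± 436 CPM in LIP (SD, n = 3 each). The summed level of the mitosis genes was 4922 ± 246 CPM in EV, 4876 ± 627 CPM in LAP and 5111 ± 465 CPM in LIP. The groups overlapped in both sums. With scaling by total counts alone, the means were 4362, 4220 and 4357 CPM for S phase and 4927, 4746 and 5248 CPM for mitosis, so the order of LAP and LIP in the S phase sum depended on the scaling. No test is given for a sum over chosen genes.

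The sums of single roles overlapped between the groups in most steps. The 9 licensing genes summed to 2038 ± 121 CPM in EV, 1922 ± 150.5 CPM in LAP and 1986 ± 240.0 CPM in LIP. The 4 firing genes summed to 142 ± 16.1, 156 ± 30.8 and 162 ± 31.0 CPM, and the 6 polymerase and clamp genes to 823 ± 47.3, 958 ± 241 and 845 ± 79.8 CPM, of which LAP 2 alone reached 1235 CPM. Cdk1 and its activators summed to 922 ± 56.2, 985 ± 156 and 894 ± 66.8 CPM, and the mitotic kinases with Birc5 to 406 ± 23.2, 397 ± 24.3 and 397 ± 23.8 CPM. Mybl2 and Foxm1 together were at 271 to 292 CPM in EV, 234 to 273 CPM in LAP and 299.5 to 465 CPM in LIP, where all LIP libraries were above the others. The 4 genes of the spindle checkpoint went the other way against EV, at 372, 422 and 383 CPM in EV 1 to 3 and 367, 309 and 369 CPM in LIP 1 to 3. All LIP libraries were below all EV libraries, LIP 1 and LIP 3 by little, and LAP spanned both at 346 to 498 CPM. The 3 E2F factors were at 105.5 to 106 CPM in EV, 81.8 to 102 CPM in LAP and 104 to 131 CPM in LIP, so that LAP lay below both other groups.

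The balance between the waves varied between libraries of a group. The ratio of the mitosis sum to the S phase sum was 1.09, 1.10 and 1.20 in EV 1, 2 and 3, then 1.02, 1.09 and 1.25 in LAP 1, 2 and 3, and 1.07, 1.18 and 1.38 in LIP 1, 2 and 3. The library numbered 3 had the highest ratio in each group, and the group means of 1.13 ± 0.0606, 1.12 ± 0.120 and 1.21 ± 0.154 (SD, n = 3 each) lay closer together than the libraries within LAP or LIP did. Read by number, the ratio was higher in LIP than in LAP in each of the 3 pairs, whereas LIP 1 was below EV 1. No test is given for a ratio of sums over chosen genes. What the replicate number stands for is not given in the sources used here.

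**Figure D3:**
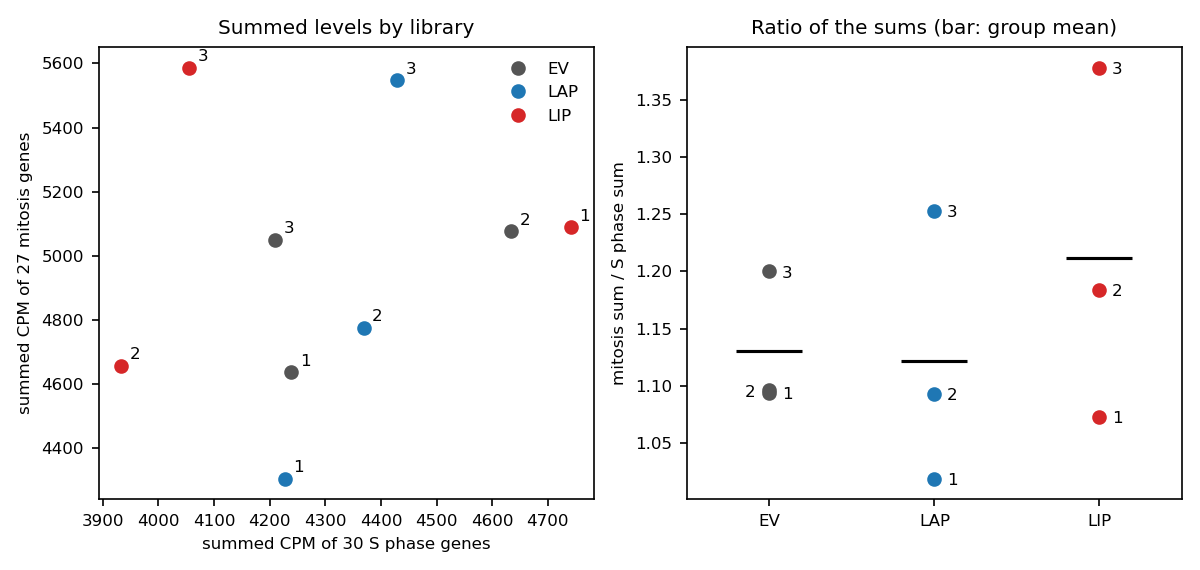
Summed level of the 27 mitosis genes against that of the 30 S phase genes in CPM (left), and their ratio by group (right, bars at the group mean), with each point 1 library marked by its replicate number; no axis starts at 0. EV, LAP and LIP overlap in both sums, and the library numbered 3 has the highest ratio of its group, at 1.20, 1.25 and 1.38.

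Single genes varied widely between libraries of a group. The libraries of LIP spread the most, with a median SD within the group of 0.30 log2 for the S phase genes and 0.25 for the mitosis genes, against 0.22 and 0.23 in LAP and 0.13 and 0.15 in EV. The 11393 genes whose mean count was at least 20 gave 0.29, 0.26 and 0.15 in LIP, LAP and EV. Of the 56 genes, 13 or 23.2% had their highest level in LAP 2 and 11 or 19.6% their lowest there, against 23.0% and 17.7% of the 11393 genes. LIP 2 held 11 of the highest and 15 of the lowest levels, or 19.6% and 26.8%, against 18.2% and 23.0%. In LAP 2 and LIP 2 these shares were thus close to those of all genes. Other libraries differed more. LAP 3 held 17.9% of the highest levels against 6.11% of all genes, and LIP 1 16.1% against 7.996%. LIP 3 lay below, at 10.7% against 18.5%. LAP 1 held 14.3% of the lowest levels against 7.64%, whereas LAP 3 and EV 2 held 0% against 6.855% and 7.59%. EV 1 and EV 3 held the highest level of 0 genes, against 4.15% and 7.16% of all genes.

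**Figure D4:**
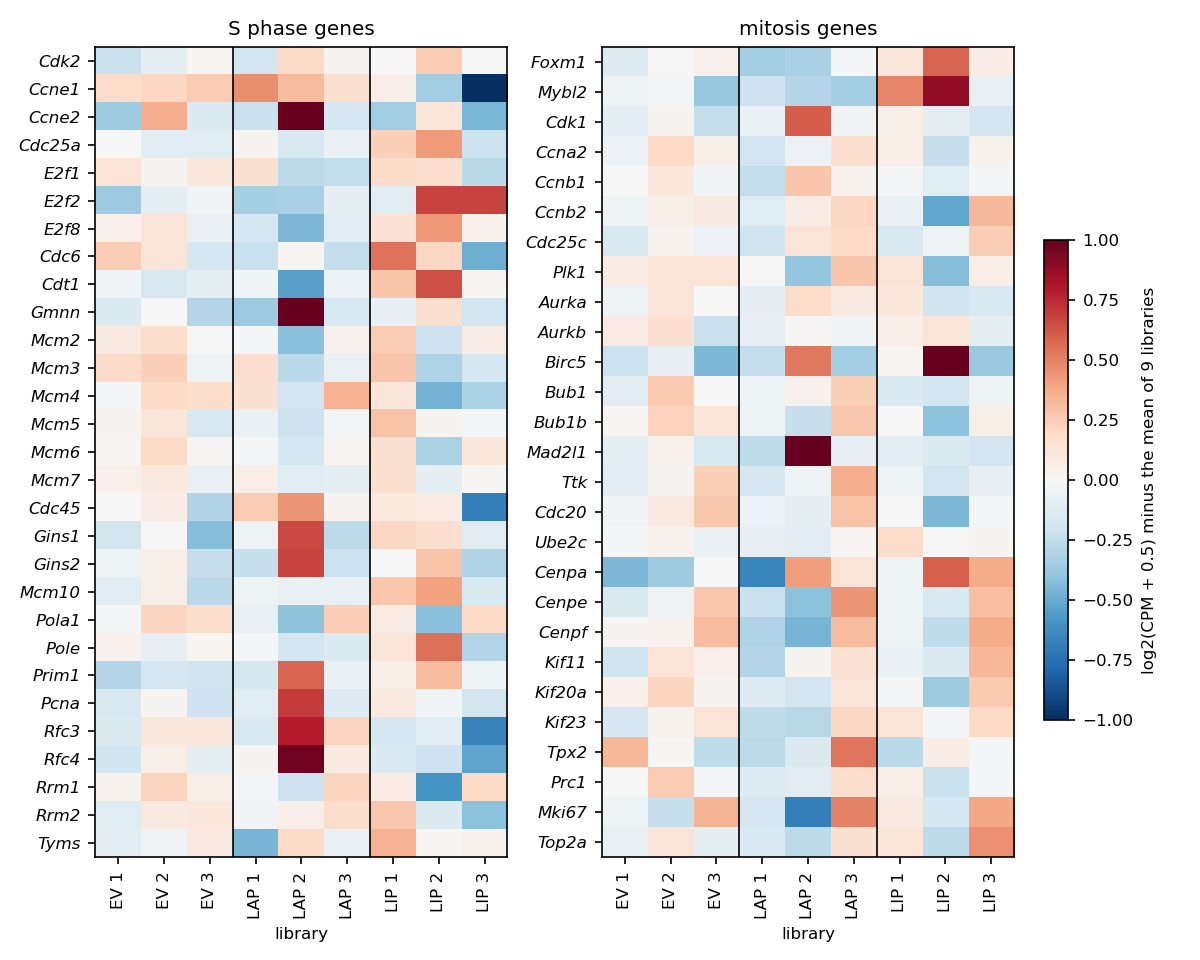
Deviation of each gene from its mean over the 9 libraries, as log2(CPM + 0.5) and limited to 1 in colour (red higher, blue lower), for the 29 S phase genes with counts (left) and the 27 mitosis genes (right), with libraries in columns and groups parted by lines. LAP 2 is red in Gmnn, Pcna, Rfc3, Rfc4, Prim1, Cdk1 and Mad2l1 and blue in Mki67, and LIP 2 is red in Mybl2, Birc5, Foxm1 and Cdt1.

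Between LIP and EV, 16 S phase genes were higher in LIP and 13 lower, and their median log2 fold change was 0.08. Of the mitosis genes 13 were higher and 14 lower, and their median was -0.08. The median over all 18203 genes tested was 0.02. Single log2 fold changes lay between -0.65 for Ccne1 and 0.66 for Birc5. Of all 18203 genes tested 0.396% had an adjusted p under 0.05, against 0 of the 56 cell cycle genes. At an unadjusted p under 0.05 there were 5 higher and 1 lower, that is 10.7% of the 56 against 11.0% of all genes. The groups did not overlap for 4 genes, or 7.14%, against 15.6% of all genes. The share of cell cycle genes was thus at or below that of all genes by each count. All genes tested include genes with few counts. Among genes with at least 10 counts in every library, 0 had an adjusted p under 0.05 in any comparison.

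The transcription factors that drive the waves gave some of the higher values in LIP. Mybl2, the B-Myb factor on chromosome 2 from 163054327 to 163084688, was at 74.3, 76.0 and 59.1 CPM in EV 1 to 3 and at 109, 143 and 73.0 CPM in LIP 1 to 3. LIP 3 lay within the EV range and the other LIP libraries above it. Its log2 fold change in LIP against EV was 0.63 ± 0.22 (SE, n = 3 each), with a Benjamini-Hochberg adjusted p of 0.299 in edgeR's quasi-likelihood test. Without LIP 3 it was 0.86 with an adjusted p of 0.0222, and without LIP 2 it was 0.38, so the size of the difference turned on these libraries. Among the other alternatives run for LIP against EV, Mybl2 was past the threshold in 1, the replicate block with the length and GC trend removed. There it was at 0.65 with an adjusted p of 0.0437 in edgeR's quasi-likelihood test. That fit called 2.64% of all genes and Mybl2 alone of the 56. Same-numbered libraries of LIP and EV deviated together only in part.

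E2f2, an activating E2F factor on chromosome 4 from 136172274 to 136196057, was at 11.4, 13.9 and 14.6 CPM in EV and at 13.7, 24.1 and 24.0 CPM in LIP. LIP 2 and LIP 3 were above all EV libraries, and LIP 1 was within their range. The log2 fold change was 0.63 ± 0.23 (SE, n = 3 each), with an adjusted p of 0.335 in edgeR's quasi-likelihood test. E2f1, the founding activator of the family, was at 54.6 to 59.0 CPM in EV and 44.5 to 61.5 CPM in LIP and gave -0.05 ± 0.16. Foxm1, which turns on mitosis genes together with Mybl2, was at 196, 216 and 223 CPM in EV and 232, 323 and 227 CPM in LIP. Its groups did not overlap, but LIP 1 and LIP 3 were close to the highest EV library, and the log2 fold change of 0.30 ± 0.18 had an adjusted p of 0.597. Without LIP 2 it was 0.11.

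Among the licensing genes, Cdt1 was the one whose groups parted. It lies on chromosome 8 from 122568015 to 122573130 and was at 136, 124 and 130.4 CPM in EV and at 168, 217 and 140.4 CPM in LIP. Every LIP library was above every EV library, though LIP 3 by little, and the two-sided exact permutation test gave p = 0.1, which is its lower limit with 3 libraries against 3. Cdt1 gave a log2 fold change of 0.43 ± 0.18 (SE, n = 3 each), with an adjusted p of 0.399 in edgeR's quasi-likelihood test, and 0.24 without LIP 2. Gmnn, which encodes geminin, the inhibitor of Cdt1, was at 59.9 to 73.0 CPM in EV and 64.2 to 82.6 CPM in LIP. The 6 Mcm helicase genes had log2 fold changes between -0.32 for Mcm4 and 0.10 for Mcm5, and all of them overlapped between the groups. Their 95% intervals lay between -0.73 and 0.47, so differences past 2-fold in either direction were outside them.

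Ccne1, the cyclin E1 that opens S phase with Cdk2, was the only gene lower in LIP than in EV at an unadjusted p under 0.05. It lies on chromosome 7 from 38097984 to 38107490 and was at 59.5, 60.3 and 62.2 CPM in EV and at 54.7, 41.0 and 20.9 CPM in LIP. All LIP libraries were below all EV libraries, and LIP 3 was far below the other LIP libraries. The log2 fold change was -0.65 ± 0.27 (SE, n = 3 each), with an adjusted p of 0.395 in edgeR's quasi-likelihood test, and -0.34 without LIP 3. Its partner Cdk2 gave 0.20 ± 0.24 and the sister cyclin Ccne2 gave -0.22 ± 0.31, both with overlapping groups. Cdc25a, the phosphatase that activates Cdk2, was at 72.6 to 79.3 CPM in EV and 67.8 to 105.9 CPM in LIP.

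At the fork, Prim1, a primase subunit, was at 59.0, 64.4 and 63.3 CPM in EV and 75.4, 90.03 and 69.99 CPM in LIP, without overlap. This gave a log2 fold change of 0.34 ± 0.15 (SE, n = 3 each), with an adjusted p of 0.455 in edgeR's quasi-likelihood test, and 0.22 without LIP 2. Prim1 was named after its values were seen. Pcna gave 0.08 ± 0.17, the polymerase subunit Pola1 -0.15 ± 0.18 and Rrm2 -0.10 ± 0.19, and the groups of each overlapped. The firing factors Cdc45 and Gins2 gave -0.06 ± 0.27 and 0.08 ± 0.18, and Tyms gave 0.17 ± 0.21.

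Of the genes that act in mitosis, Cenpa and Birc5 had the higher values in LIP. Cenpa, the histone that marks the centromere, on chromosome 5 from 30666877 to 30674837, was at 169, 179.6 and 231 CPM in EV and 223, 348.5 and 297.5 CPM in LIP. LIP 1 fell within the EV range and the other LIP libraries above it. The log2 fold change of 0.58 ± 0.20 (SE, n = 3 each) had the smallest p of the 56 genes in LIP against EV, with an adjusted p of 0.280 in edgeR's quasi-likelihood test. Birc5, the survivin subunit of the Aurora B complex, was at 26.6, 29.3 and 22.6 CPM in EV and at 31.5, 69.1 and 23.8 CPM in LIP, so that LIP 2 alone stood out. Its log2 fold change was 0.66 ± 0.31 with LIP 2 and 0.07 without it.

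The genes of entry into mitosis and of its exit showed no such step. Cdk1 was at 271 to 326 CPM in EV and 282 to 333 CPM in LIP, with a log2 fold change of 0.03 ± 0.16. Ccna2 and Ccnb1, the cyclins A2 and B1, gave -0.11 ± 0.16 and -0.08 ± 0.15. Plk1 gave -0.17 ± 0.17, Aurkb 0.02 ± 0.16, the checkpoint kinases Bub1b -0.23 ± 0.17 and Bub1 -0.24 ± 0.30, and Cdc20 -0.25 ± 0.17. Top2a gave 0.15 ± 0.21 and Mki67, whose level ranged from 434 to 647 CPM within EV alone, gave 0.08 ± 0.21. Every one of these overlapped between the groups. Over the 56 genes the 95% interval stayed within 2-fold in either direction for 50 genes and within 1.5-fold for 29.

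**Figure D5:**
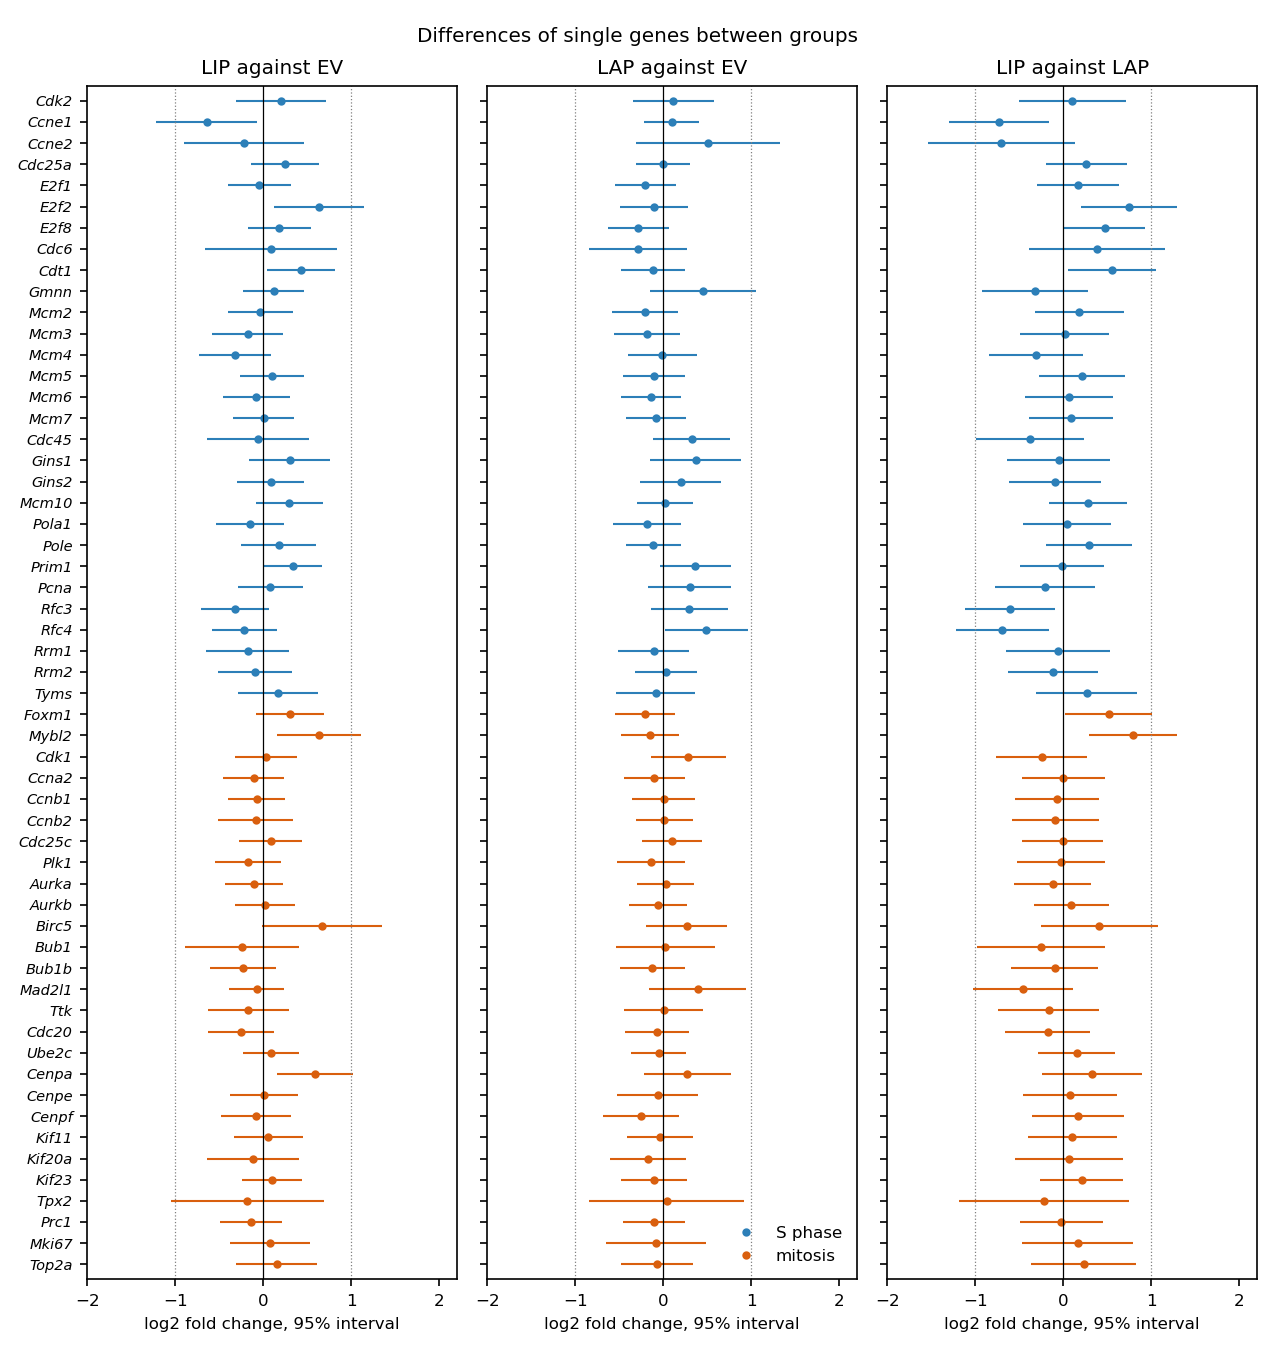
Log2 fold change of each gene with its 95% interval in LIP against EV, LAP against EV and LIP against LAP (panels from left), for 29 S phase genes (blue) and 27 mitosis genes (orange), with dotted lines at a 2-fold difference. Most intervals include 0. Those of Mybl2, E2f2, Cdt1 and Ccne1 leave it in both comparisons with LIP, and those of Cenpa and Prim1 in LIP against EV. The interval of Rfc4 leaves it in LAP against EV, and those of Rfc3, Rfc4, Foxm1 and E2f8 in LIP against LAP.

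Between LAP and EV the differences were smaller still. Of the S phase genes 13 were higher and 16 lower in LAP, and their median log2 fold change was -0.01. Of the mitosis genes 11 were higher and 16 lower, and their median was -0.06, against 0.00 over all 18156 genes tested. An adjusted p under 0.05 was reached by 0 of the 56, against 0.0606% of all 18156 genes tested. An unadjusted p under 0.05 was reached by 1 of the 56, or 1.79%, against 3.27%. The groups did not overlap for 1 gene, or 1.79%, against 7.57% of all genes. With the replicate number as a block, 0.297% of all genes and 0 of the 56 passed. The 95% intervals stayed within 2-fold for 54 of the 56 genes and within 1.5-fold for 35.

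The gene with the smallest p was Rfc4, a subunit of the complex that loads Pcna, on chromosome 16 from 23113948 to 23127730. It was at 33.1, 39.9 and 35.7 CPM in EV and at 38.8, 74.9 and 40.4 CPM in LAP. Its log2 fold change was 0.49 ± 0.22 (SE, n = 3 each) with an adjusted p of 0.918 in edgeR's quasi-likelihood test, and 0.13 without LAP 2. E2f8, a repressing E2F factor, was the gene without overlap, at 35.9, 37.9 and 32.9 CPM in EV and 30.8, 25.2 and 32.1 CPM in LAP. Its log2 fold change was -0.28 ± 0.16.

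Most of the other higher values in LAP shrank without LAP 2 as well. Gmnn was at 56.8, 153.5 and 65.5 CPM in LAP 1 to 3, and its log2 fold change against EV was 0.45 ± 0.28 with LAP 2 and -0.12 without it. The checkpoint gene Mad2l1 was at 127, 303 and 143 CPM and gave 0.39 ± 0.26 with LAP 2 and -0.09 without it. Pcna was at 419, 742 and 418 CPM and gave 0.30 ± 0.22 and then -0.01. Cdk1 was at 305, 487 and 312 CPM, and Ccne2 at 2.44, 7.47 and 2.55 CPM. In LAP 1 and LAP 3 these genes were near their EV levels. Gins1, a subunit of the GINS complex, gave 0.37 and then 0.04, and Prim1 gave 0.36 and then 0.10. Cdc45 was the exception, at 7.31, 7.71 and 5.83 CPM in EV and 8.79, 10.1 and 7.44 CPM in LAP, with 0.32 ± 0.20 and 0.23 without LAP 2. Once a trend with exon length and GC content was removed, an alternative chosen after seeing the data, the log2 fold changes were 0.19 for Gmnn, 0.08 for Pcna, 0.20 for Rfc4 and 0.39 for Mad2l1. The length used for Mad2l1, 8032 bases of exon, is longer than its whole RefSeq gene, on chromosome 6 from 66535221 to 66541107. Whether that length describes its message was not tested. Mki67 showed the opposite, at 317 CPM in LAP 2 against 455 and 721.5 CPM in LAP 1 and LAP 3, and gave -0.08 ± 0.26 against EV. Mybl2, Foxm1 and Cenpf, a large centromere protein, gave -0.15 ± 0.15, -0.21 ± 0.16 and -0.25 ± 0.20.

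Between LIP and LAP, 30 of the 56 genes were higher in LIP and 26 lower. The median log2 fold change was 0.04 for S phase, 0.00 for mitosis and 0.01 over all 18166 genes tested. This comparison shares its libraries with both others, so its values are not independent of theirs. An adjusted p under 0.05 was reached by 0 of the 56 genes, against 1.05% of all 18166 genes tested. At an unadjusted p under 0.05 there were 5 higher and 3 lower, or 14.3%, against 9.28% of all genes. The groups did not overlap for 7 genes, or 12.5%, against 12.8% of all genes. The 95% intervals stayed within 2-fold for 44 of the 56 genes and within 1.5-fold for 13, so this comparison was the least precise.

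Libraries of the same number deviated together in LIP and LAP, and the replicate number was therefore also entered as a block. With this block 5 of the 56 genes had an adjusted p under 0.05, that is 4 S phase genes and 1 mitosis gene, against 6.51% of all genes tested. Ccne1 was at 72.2, 65.2 and 58.3 CPM in LAP 1 to 3, above 54.7, 41.0 and 20.9 CPM in LIP 1 to 3. Its log2 fold change was -0.73 ± 0.27 without the block, with an adjusted p of 0.333, and -0.83 ± 0.18 with it, with an adjusted p of 0.000796, both from edgeR's quasi-likelihood test. Ccne1 was the lower of each numbered pair in LIP. Mybl2 was at 66.6, 62.8 and 60.9 CPM in LAP, below its LIP values of 109, 143 and 73.0 CPM. It gave 0.79 ± 0.24 with an adjusted p of 0.164 without the block and 0.74 ± 0.18 with an adjusted p of 0.00285 with it, and without LIP 3 it passed unblocked at 1.01 with an adjusted p of 0.00844.

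E2f2 was at 11.7, 11.8 and 13.9 CPM in LAP and 13.7, 24.1 and 24.0 CPM in LIP. LIP 1 was just below LAP 3, and the other LIP libraries were above all of LAP. E2f2 gave a log2 fold change of 0.74 ± 0.26 with an adjusted p of 0.284 in edgeR's quasi-likelihood test, and 0.70 with an adjusted p of 0.0154 under the block. Rfc4 was at 38.8, 74.9 and 40.4 CPM in LAP and 34.5, 32.8 and 26.3 CPM in LIP. It gave -0.69 with an adjusted p of 0.300 and, under the block, -0.64 with an adjusted p of 0.0155. Rfc3, on chromosome 5 from 151642817 to 151651208, was at 70.3, 135 and 91.2 CPM in LAP and 69.6, 72.7 and 49.1 CPM in LIP. Its values were -0.61 with an adjusted p of 0.397 and -0.58 with an adjusted p of 0.0285 under the block. LIP 1 and LAP 1 were alike in Rfc3, and without LAP 2 the unblocked log2 fold changes of Rfc4 and Rfc3 were -0.35 and -0.34. Both genes have short transcripts, of 1307 and 1317 bases of exon, and LAP 2 is the library that stood apart by exon length.

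The block was therefore also run with the length and GC trend of each library removed, an alternative chosen after seeing the data, in which 5.27% of all genes tested had an adjusted p under 0.05. In this fit Rfc4 and Rfc3 no longer passed in edgeR's quasi-likelihood test, with log2 fold changes of -0.44 and -0.38 and adjusted p-values of 0.118 and 0.228. Ccne1, Mybl2 and E2f2 still passed, at -0.74, 0.70 and 0.63 with adjusted p-values of 0.0254, 0.0118 and 0.0406. Cenpa was at 146, 307 and 251 CPM in LAP, below its LIP values of 223, 348.5 and 297.5 CPM in each numbered pair. It passed in addition, at 0.52 with an adjusted p of 0.0348, against 0.32 without block or trend removal and 0.36 with the block alone.

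A further 3 genes were higher in LIP than in LAP at an unadjusted p under 0.05, with no overlap and no call under the block, with or without the trend. Cdt1 was at 135, 95.2 and 133.5 CPM in LAP, against 168, 217 and 140.4 CPM in LIP, with a log2 fold change of 0.55 ± 0.24. Foxm1 was at 169, 171.5 and 212 CPM in LAP, against 232, 323 and 227 CPM in LIP, with 0.51 ± 0.24. E2f8 was at 30.8, 25.2 and 32.1 CPM in LAP, against 38.4, 46.9 and 35.5 CPM in LIP, with 0.47 ± 0.22. Without LIP 2 they were 0.36, 0.32 and 0.34. The adjusted p-values with all libraries were 0.468, 0.506 and 0.524 in edgeR's quasi-likelihood test, and 0.0573, 0.0773 and 0.130 with the block. Mki67, Top2a and Cdk1 gave 0.16 ± 0.30, 0.23 ± 0.28 and -0.25 ± 0.25 between LIP and LAP and overlapped.

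Related genes outside the set were read from lists chosen by role. Of 34 other replication genes, 46 other mitosis genes, 12 G1 cyclins, their kinases and other E2F factors, and 7 Cdk inhibitors, of which 6 had counts and were tested, 0 had an adjusted p under 0.05 in any comparison. In LIP against EV, 1 other replication gene was higher, 1 other mitosis gene was higher and 3 were lower at an unadjusted p under 0.05, which 11.0% of all genes passed. None of the G1 genes and 2 of the 6 Cdk inhibitors tested, both lower, reached that level. For the replication, mitosis and G1 genes these counts lie below the share of all genes, and nothing is read from 2 of 6. The medians were 0.06, -0.08, 0.05 and -0.39. The gene with the smallest p among the inhibitors was Cdkn2a, the Ink4a and Arf locus, at 35.8, 28.3 and 30.6 CPM in EV and 24.4, 17.0 and 12.1 CPM in LIP. All LIP libraries were lower, with a log2 fold change of -0.82 ± 0.24 (SE, n = 3 each) and an adjusted p of 0.186 in edgeR's quasi-likelihood test. In LIP against LAP it gave -0.73 ± 0.27, with LAP at 35.4, 33.6 and 21.2 CPM. The mitotic kinase Pbk gave -0.51 ± 0.17 and -0.65 ± 0.23 in LIP against EV and against LAP, and Ticrr, a firing factor, 0.38 ± 0.16 against EV. Cdk6, a partner of the D cyclins, was at 40.9 to 54.5 CPM in EV, 29.9 to 53.7 CPM in LAP and 47.6 to 72.5 CPM in LIP, and gave 0.37 ± 0.19 against EV and 0.74 ± 0.26 against LAP. The smallest p in LAP against EV belonged to Orc4, Nek2, Cdk6 and Cdkn1a in these lists, each with an adjusted p of 0.918.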

How the data were processed

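RNA-seq libraries of 3 EV, 3 LAP and 3 LIP samples were grouped by their labels. The authors deposited raw counts per gene symbol, made with TopHat 1.4.1 and HTSeq 0.5.4 after bcl2fastq 1.8.3 according to the submitters' processing notes. The notes name both a human and a mouse build, GRCh38 and mm10. The strand setting is not given in the sources used here. Counts were tested with edgeR 4.0.16 under R 4.3.3: TMM, the 6 libraries of each comparison, genes with at least 1 count, quasi-likelihood test with default options and Benjamini-Hochberg adjustment, threshold 0.05. An exact permutation test, two-sided and with 0.1 as its smallest p, was run on single genes beside this. Levels are CPM scaled over the 9 libraries. Fold changes come from the 6 libraries compared, and 95% intervals from the SE and the test's degrees of freedom. Alternatives included DESeq2 1.42.0, other scalings and filters, left-out libraries, a replicate block, and the trend of each library with exon length and GC content removed by loess, with and without the block. The test was tried on simulated data. Figures were drawn with matplotlib 3.10.9.

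Replicate numbers come from the labels. Same-numbered libraries correlated in their deviations from the group means at 0.553, 0.411 and 0.463 in LIP and LAP and at 0.520, 0.208 and 0.512 in LAP and EV, over 0.1 in every pair, and at 0.286, -0.119 and 0.230 in LIP and EV. The block was therefore used as a pairing in the first 2 comparisons.

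The members, lists, naming rule and tests were chosen with earlier results of these data known. Named were the genes with the smallest p and the largest and smallest fold changes of each comparison and wave, genes listed by role, and, of other lists, the gene with the smallest p. Symbols were matched to RefSeq positions and promoters on GRCm38.p6 and to GENCODE vM21 exons, which gave lengths for 22831 of the 23337 symbols and for all 57 genes.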

Additional observations from a re-analysis of the deposited data

How the results depend on the processing

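The direction or call of the cell cycle genes changed little across alternatives. Out of 1008 values of single genes per comparison, 1006 kept their side of the threshold in LIP against EV, 1008 in LAP against EV and 998 in LIP against LAP, while the sign changed in 39, 77 and 80. No called value reversed. In LIP against EV, with 0 S phase and 0 mitosis genes past the threshold, the median log2 fold change lay between -0.0606 (without LIP 1) and 0.17 for S phase and between -0.0849 (without LIP 3) and 0.0340 (without LIP 2) for mitosis as each library was left out, and the number of mitosis genes between 0 and 1 (Mybl2, without LIP 3). In LIP against LAP the median of mitosis lay between -0.0687 (without LIP 3) and 0.189 (without LAP 3) and its number between 0 and 1 (Mybl2, without LIP 3). With the replicate block, 4 S phase genes and 1 mitosis gene passed in LIP against LAP. In LIP against EV, where same-numbered libraries deviated together only in part, the block called 467 of all genes and 0 of the 56. In LAP against EV it called 54 and 0. The block alone changed no other call of a cell cycle gene. The block with the length and GC trend removed, added after seeing the data, called 0 S phase genes and 1 mitosis gene in LIP against EV, 0 and 0 in LAP against EV and 2 and 2 in LIP against LAP, and 472, 68 and 941 of all genes. The number of all genes past the threshold moved much more, and the cause was not tested. In LIP against EV (72) it was 321 with DESeq2, 301 with the edgeR exact test, 257 with both, 36 with total counts only, 4 with filterByExpr, 0 with at least 10 counts in every library, 29 with robust estimation and 22 to 367 with a library left out. In LAP against EV (11) it was 26, 33 and 25 with the first 3 of these, 3 with filterByExpr, 0 with at least 10 counts, 3 with all 9 libraries in 1 model and 6 to 62 with a library left out. In LIP against LAP (190) it was 113 with total counts only, 2 with filterByExpr, 0 with at least 10 counts, 1183 with the block, 55 with robust estimation and 7 to 448 with a library left out. With 3 libraries per group, 95% intervals within 2-fold for 50, 54 and 44 of the 56 genes limit what could be seen, and depth limits Tpx2, Bub1 and Cdc6, with 76 counts per library or fewer.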
